A study of Cricetiscus sungorus with 41 samples.

Results

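F-box proteins are the exchangeable subunits that choose the target of the SCF ubiquitin ligases, in which the adaptor SKP1 links an F-box protein to the scaffold CUL1 and the RING proteins RBX1 or RNF7 recruit the ubiquitin-charged enzyme. The family is divided by the domain that binds the target into FBXL proteins with leucine-rich repeats, FBXW proteins with WD40 repeats and FBXO proteins with other or no known domains. Single members are known to control the cell cycle, iron uptake and muscle mass. The members described here were all symbols of the count table that consist of FBXL, FBXO or FBXW and a number. They comprised 62 of the 20220 symbols, namely 17 FBXL, 36 FBXO and 9 FBXW genes. The rule used the symbols, but the family was chosen by measured levels, since FBXO7, FBXL12 and FBXO40 were higher in torpid animals, and no time point was named for that choice.

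RNA was sequenced from the blood cells of 41 wild-type adult Djungarian hamsters. Hypothermic animals (HT), which showed spontaneous daily torpor on the day of sampling, were compared with normothermic animals (NT), which did not, at the same zeitgeber time (ZT, hours after lights on). The groups held 5 HT and 6 NT animals at ZT01, 5 HT and 4 NT animals at ZT04, 4 HT and 4 NT animals at ZT07, and 4 HT and 4 NT animals at ZT16. A further group of 5 controls was labelled as never having shown torpor, without a time or a sex. According to the study's methods the ZT04 animals were housed in a winter-like short photoperiod with food ad libitum, ZT04 was the torpor nadir, and blood was drawn by heart puncture. For the other groups the housing, age and body temperature are not given in the sources used here. The labels gave 2 male and 3 female HT against 4 male and 2 female NT animals at ZT01, 2 male and 3 female HT against 4 male NT animals at ZT04, 1 male and 3 females in both groups at ZT07, and 4 female HT against 4 male NT animals at ZT16.

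The libraries held 50153600 to 71662267 counts, of which 73.7 to 93.8% belonged to haemoglobin genes, so that the remaining genes were measured with 3291472 to 14562786 counts. The lowest haemoglobin share belonged to 1 never-torpor library, which stood apart from the rest. At ZT07, 2 HT libraries (replicates 1 and 2, labelled male and female) carried Y-linked counts that went against their labelled sex, so the counts of F-box and other ligase genes called at ZT07 are also given without both of them. Levels are given as CPM, the counts scaled to a common library size, corrected with TMM normalisation factors that level out differences in composition between libraries. Because the counts were not divided by transcript length, levels were compared between animals and not between genes. In whole blood, fewer cells of a type and less RNA per cell cannot be told apart.

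Of the 62 members, 54 had counts in at least 1 library and 50 passed the filter on low counts in at least 1 comparison. No count was listed for FBXL7, FBXL16, FBXL22, FBXO2, FBXO17, FBXO43, FBXO44 and FBXW10, and FBXL13, FBXO16, FBXO36 and FBXO47 had too few counts to be tested. FBXO2, FBXO17 and FBXO44 belong with FBXO6 and FBXO27 to a group of closely related proteins, several of which bind glycoproteins. As each assembled transcript was given the symbol of its best human match, reads of such near relatives may be listed under 1 symbol. Most counts fell to FBXL17, a quality control factor for BTB-domain proteins, with 231934 counts over the 41 libraries. It was followed by FBXO9 with 69333, FBXL5 with 21203, FBXW12 with 20402 and FBXL14 with 19522 counts.

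At ZT04, FBXO7 and the 2 genes named with it separated torpid from normothermic animals completely. FBXO7 binds the proteasome regulator PI31 and takes part in mitophagy, and in mice it is needed for red cell maturation. Its level was 11.6, 9.84, 13.8, 10.9 and 11.6 CPM in HT, against 6.13, 6.74, 5.72 and 4.54 CPM in NT. FBXL12, which in human cells marks the cyclin-dependent kinase inhibitor CDKN1C for degradation, had 4.89, 6.04, 5.28, 6.64 and 6.28 CPM in HT, against 3.11, 2.52, 2.03 and 2.82 CPM in NT. FBXO40, which is known from skeletal muscle, where it marks IRS1 for degradation, had 2.91, 2.60, 2.99, 2.45 and 2.23 CPM in HT, against 0.803, 0.268, 0.784 and 1.06 CPM in NT. The value of 0.268 CPM rests on 5 counts, in the library with the fewest counts outside haemoglobin, and without that library the log2 fold change was 1.56. The lowest HT animal lay above the highest NT animal for each of these genes. On the log2 scale HT exceeded NT by 1.75 ± 0.29 (SE) for FBXO40, 1.14 ± 0.18 for FBXL12 and 0.99 ± 0.17 for FBXO7. These 3 were the only members with an adjusted p under 0.05 at this time in edgeR's quasi-likelihood test. Of all genes tested 0.447% passed, and 0.286% were higher in HT. FBXL14, an F-box protein for the transcription factor SNAI1, had 8.70 to 10.6 CPM in HT and 6.30 to 8.45 CPM in NT and was the only other one of the 48 members tested without overlap, while HT lay above NT without overlap in 4.02% of all genes tested. As the genes that rise in HT chose the family and match the calls at this time, the ZT04 values are a description and carry no test. With a sex term in the fit no member passed, at log2 fold changes of 1.82 ± 0.36 for FBXO40, 1.06 ± 0.23 for FBXL12 and 0.89 ± 0.22 for FBXO7, and the NT animals of this time were all male. Among 11 markers of NK and cytotoxic cells at ZT04, all had a log2 fold change below 0, with a median of −1.05, and KLRD1 (−1.32 ± 0.25, adjusted p = 0.0454) and TBX21 (−1.80 ± 0.31, adjusted p = 0.0269) fell. Their summed level was 45.3 to 92.2 CPM in HT and 65.7 to 143 CPM in NT, and its part in the F-box differences was not tested. FBXO30, chosen here after its values were seen, had 3.53 to 6.39 CPM in HT and 5.72 to 9.34 CPM in NT, with overlap.

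**Figure D1:**
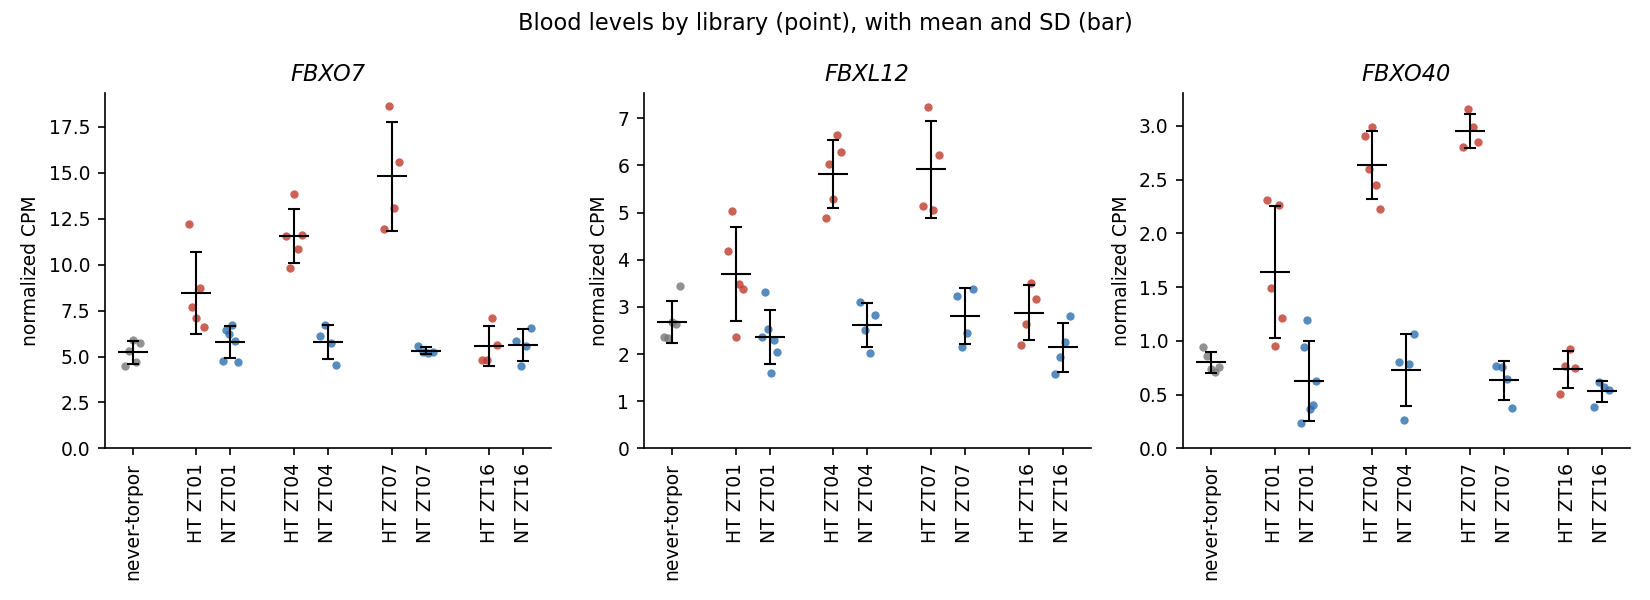
Normalized CPM (y axis, linear from 0) of FBXO7, FBXL12 and FBXO40 in each of the 41 libraries by group (x axis); points are libraries, bars are the mean and SD, red is HT, blue NT and grey never-torpor. For each gene the HT libraries of ZT04 and ZT07 lie above all NT libraries of the same time, while the HT libraries of ZT16 overlap with NT.

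The ZT07 animals, which are other animals than those of ZT04, addressed whether the difference was also present later in the light phase. Here 9 of the 48 members tested rose in HT and none fell. Over all 10787 genes tested, 10.4% were called, 5.72% higher and 4.65% lower in HT. The median log2 fold change was 0.05 over the members and −0.04 over all genes, and 26 of the 48 members had a log2 fold change above 0, against 46.9% of all genes. The 9 that rose included FBXO40, FBXO7, FBXL12, FBXO3, FBXW7, FBXO11, FBXL14 and FBXL5. No time point was named for the choice of FBXO40, FBXO7 and FBXL12, so it may have used their ZT07 values. Their p-values at ZT07 and in the later comparisons with HT animals are therefore no independent test.

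FBXO40 showed the largest difference among the members, with 2.81, 3.16, 2.99 and 2.85 CPM in HT, against 0.764, 0.758, 0.642 and 0.374 CPM in NT. This is a 4.52-fold higher level (log2 fold change 2.18 ± 0.23, SE, adjusted p = 0.000752, edgeR). The 4 HT animals lay close together and far above NT, on 179 to 311 counts per HT library and 20 to 72 counts per NT library. FBXO7 had 11.9, 18.6, 13.1 and 15.6 CPM in HT, against 5.58, 5.23, 5.19 and 5.26 CPM in NT, a 2.74-fold difference (1.46 ± 0.16, adjusted p = 0.000922). The NT animals hardly varied (SD 0.18 CPM), whereas the HT animals were spread more widely (SD 2.96 CPM). FBXL12 had 5.15, 7.24, 5.05 and 6.22 CPM in HT, against 3.23, 2.16, 2.44 and 3.37 CPM in NT (1.06 ± 0.18, adjusted p = 0.00862). HT and NT did not overlap in any of these genes. When both libraries with an unmatched sex label were left out, FBXO7 and FBXO40 still passed, whereas FBXL12 did not (adjusted p = 0.0982) and 2 members were called in all.

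FBXO40 is known as a muscle gene, and blood was taken from the heart, so the muscle markers are given beside it. Of 26 markers of skeletal and heart muscle, MYL7, NPPA, NPPB and MYH4 had no count in any library, and 5 had enough counts to be tested at ZT07. None of these 5 was called at ZT07 (2 at an unadjusted p under 0.05), and their median log2 fold change was 0.59. The summed level of the 26 markers was 5.16 to 26.0 CPM in HT and 7.42 to 10.6 CPM in NT. The ranges overlapped, with HT reaching higher. In the average of ZT01 and ZT07, TNNT3 (1.42 ± 0.43, adjusted p = 0.0287) and MYBPC3 (0.75 ± 0.25, adjusted p = 0.0483) rose among 7 markers tested. The part of muscle RNA in the FBXO40 difference was not tested. FBXO32, the F-box gene of muscle atrophy, was chosen here after its values were seen. It had 0.178 to 0.732 CPM in HT and 0.294 to 0.568 CPM in NT at ZT07 and did not pass (−0.10 ± 0.44, adjusted p = 0.912).

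**Figure D2:**
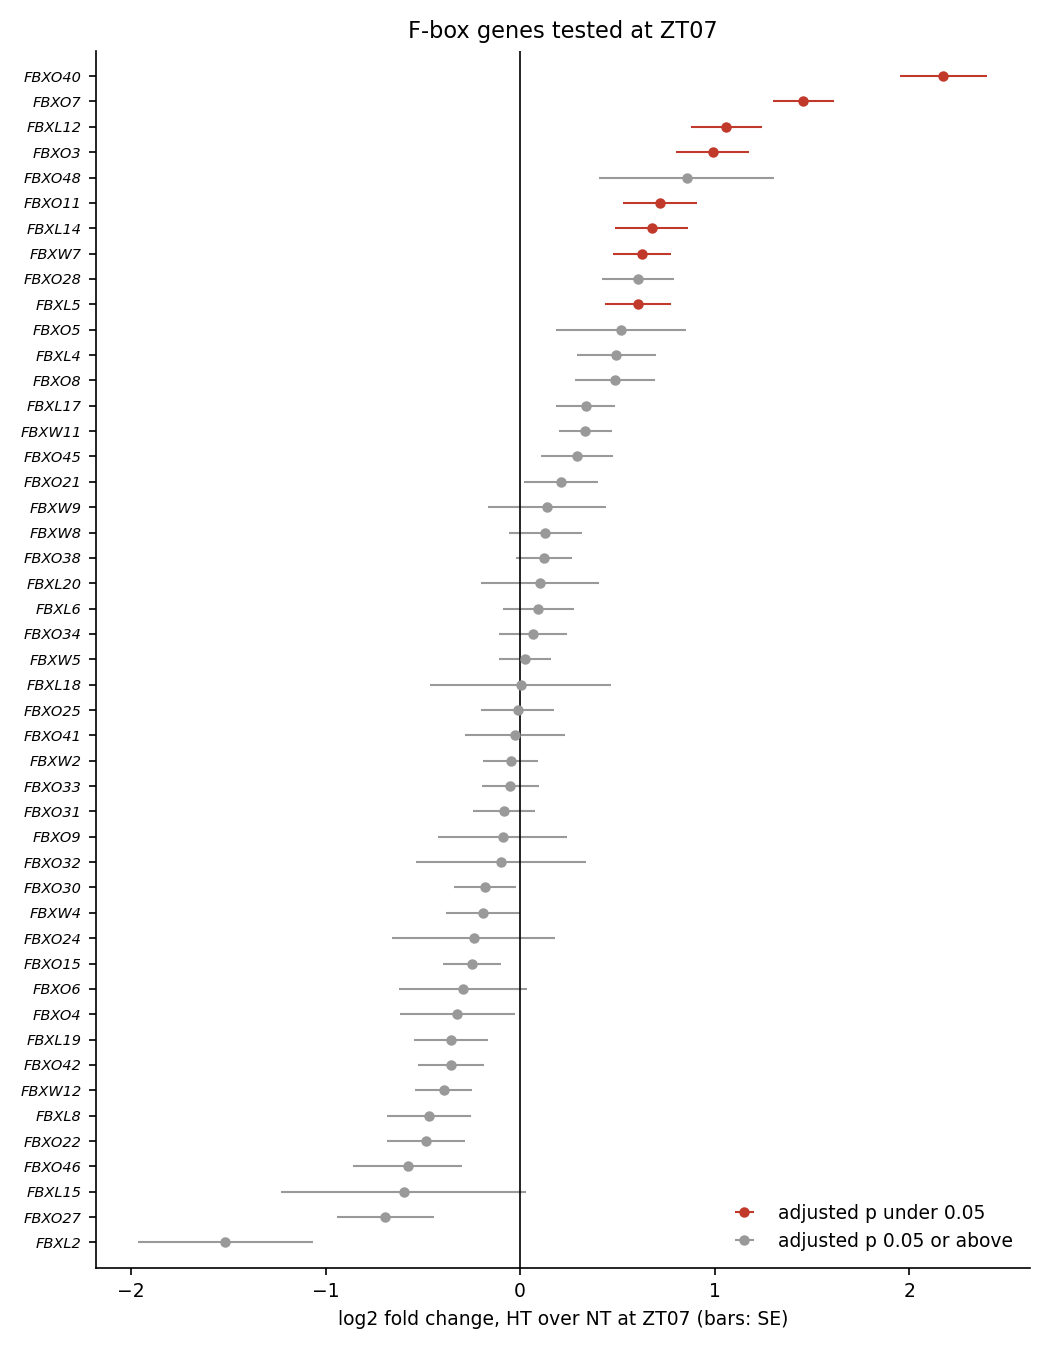
Log2 fold change of HT over NT at ZT07 (x axis) with its SE for 47 F-box genes tested, ordered by size (y axis); red marks an adjusted p under 0.05 and grey an adjusted p of 0.05 or above. The 8 red genes all lie right of 0, led by FBXO40 at 2.18, and FBXL2 is lowest at −1.51.

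A further 5 members that rose at ZT07, described next, have well-known targets. FBXO3 is the F-box protein that marks another member, FBXL2, for degradation in human cells. FBXO3 had 8.66, 7.78, 9.14 and 7.38 CPM in HT, against 4.85, 4.38, 4.46 and 2.66 CPM in NT, a 1.99-fold difference (0.99 ± 0.19, adjusted p = 0.0118). HT lay above NT in every animal. FBXL2 itself had 0.123, 0.193, 0.208 and 0.207 CPM in HT, against 0.544, 0.484, 0.821 and 0.225 CPM in NT. Its groups did not overlap, yet the difference just missed the threshold (−1.51 ± 0.45, adjusted p = 0.0522), on no more than 19 counts per HT library and 46 per NT library.

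FBXL5 is an iron sensor that directs the degradation of the iron regulatory protein IREB2 when iron is plentiful. Its levels were 10.1, 12.2, 11.8 and 9.43 CPM in HT and 8.33, 7.38, 7.39 and 5.11 CPM in NT (0.61 ± 0.17, adjusted p = 0.0457). The groups did not overlap.

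FBXW7 acts on cyclin E, MYC, NOTCH and MCL1. It had 5.81, 6.05, 6.96 and 5.52 CPM in HT and 4.61, 3.94, 3.32 and 3.65 CPM in NT (0.63 ± 0.15, adjusted p = 0.0249). FBXO11, which acts on the lymphocyte regulator BCL6, had 6.80, 7.29, 7.24 and 6.92 CPM in HT and 5.17, 4.16, 4.89 and 2.68 CPM in NT (0.72 ± 0.19, adjusted p = 0.0366). In both genes all HT animals lay above all NT animals. FBXL14 passed as well (0.68 ± 0.19, adjusted p = 0.0442), but 1 HT animal, with 6.73 CPM beside 12.2, 13.1 and 11.1 CPM in the others, fell among the NT animals at 6.49, 6.91, 6.55 and 6.65 CPM. With both unmatched libraries left out, none of these 5 genes passed. With 1 library left out at a time, FBXO40, FBXO7, FBXL12 and FBXO3 passed in all 8 fits, FBXW7 in 4, FBXO11 in 2 and FBXL14 and FBXL5 in 1. The count of members called was then lowest at 4, without HT replicate 2, NT replicate 2 or NT replicate 3, and 5 without HT replicate 1.

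**Figure D3:**
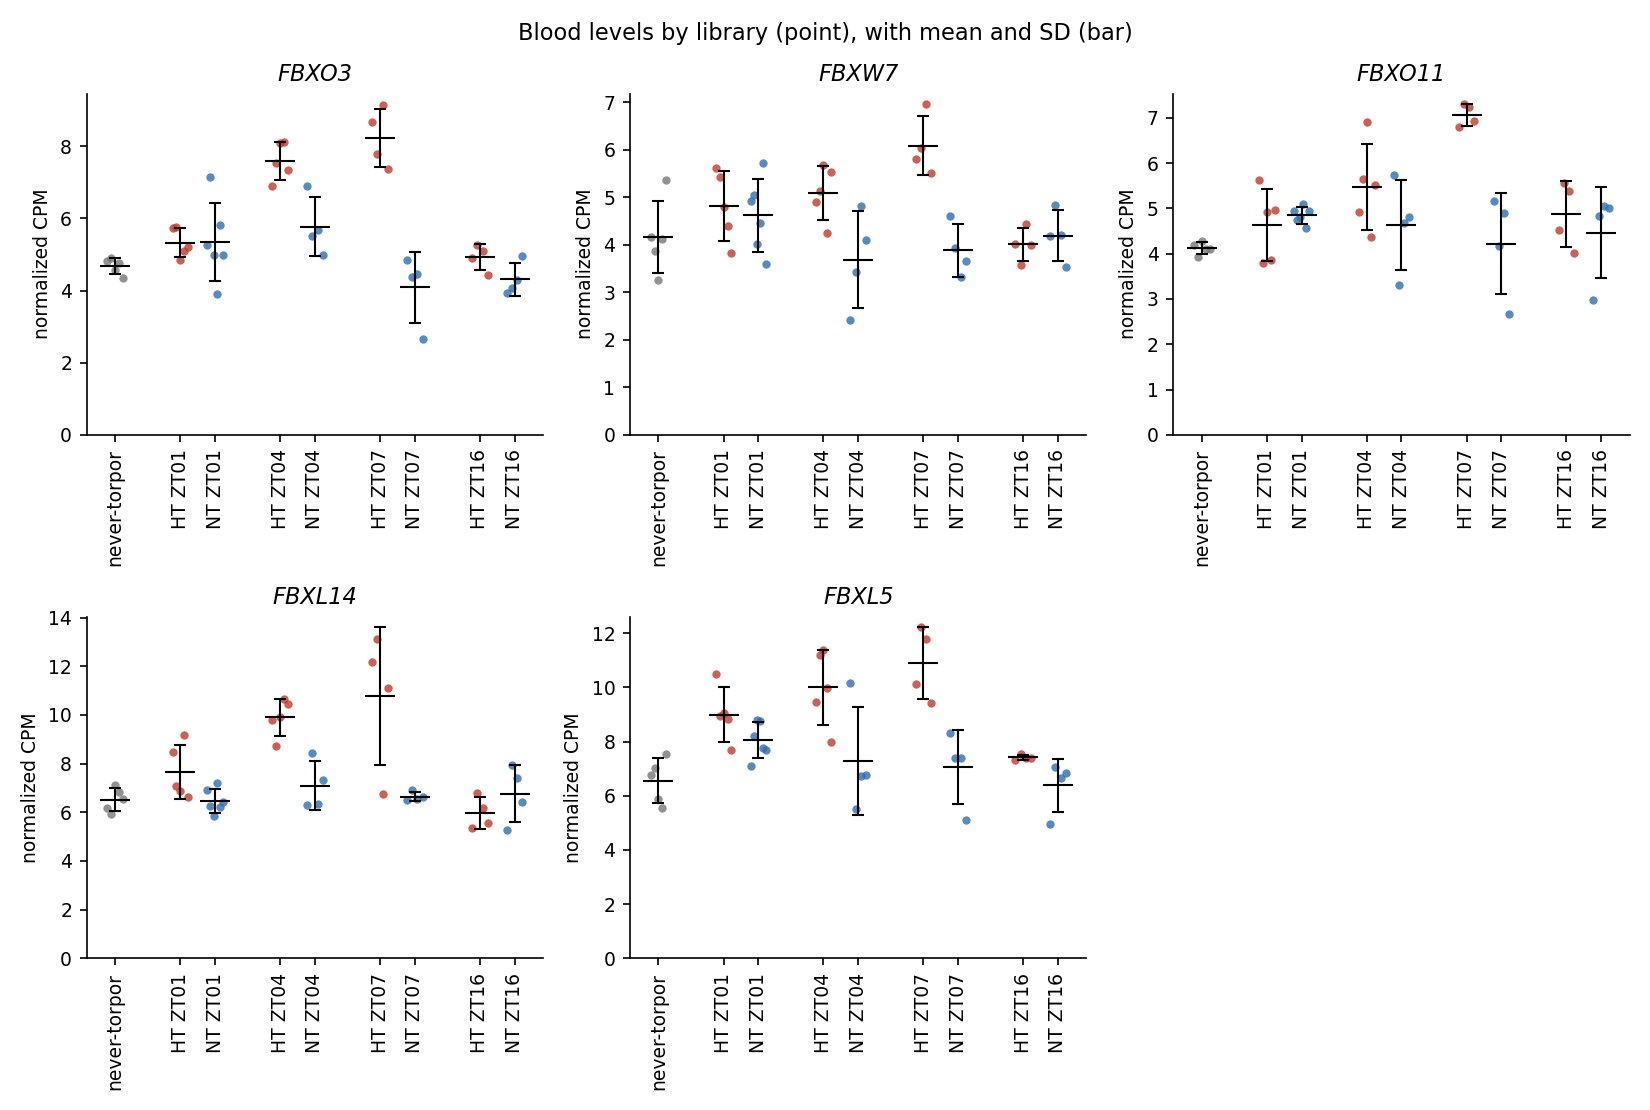
Normalized CPM (y axis, linear from 0) of FBXO3, FBXW7, FBXO11, FBXL14 and FBXL5 in each library by group (x axis); points are libraries, bars are the mean and SD, red is HT, blue NT and grey never-torpor. At ZT07 the HT libraries lie above the NT libraries except for 1 HT library of FBXL14 at 6.73 CPM.

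HT lay above NT without overlap in 11 of the 48 members tested at ZT07 and below NT in 2, against 10.8% and 8.31% of all genes tested. Besides 8 of the 9 genes that rose, HT was above NT in FBXO5, FBXO28 and FBXW11, and below NT in FBXL2 and FBXO22. FBXO28 had 7.31, 7.68, 5.43 and 6.66 CPM in HT and 4.41, 5.08, 5.00 and 3 CPM in NT (0.61 ± 0.19, adjusted p = 0.0576). FBXO22, which acts on KDM4 histone demethylases, had 1.33, 1.12, 1.01 and 0.859 CPM in HT and 1.56, 1.41, 1.48 and 1.52 CPM in NT (−0.49 ± 0.20, adjusted p = 0.142). Neither gene passed at this time. The members together took 0.300 to 0.332% of the non-haemoglobin counts in HT at ZT07 and 0.206 to 0.251% in NT, a sum in which FBXL17 weighs most, at 96.6 to 123 CPM in HT and 74.6 to 103 CPM in NT.

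At ZT01, early in the light phase, no member was called, and 0% of the 10509 genes tested passed with edgeR. The count was also 0 with DESeq2 and limma. At an unadjusted p under 0.05 there were 4 members higher and 2 lower in HT, against 3.87% and 3.81% of all genes. FBXO40 led with 2.31, 1.49, 0.955, 2.26 and 1.21 CPM in HT, while the 6 NT animals lay between 0.239 and 1.19 CPM with a median of 0.514 CPM (1.35 ± 0.38, adjusted p = 0.585). FBXO7 had 12.2, 7.67, 7.08, 8.72 and 6.58 CPM in HT, against 4.71 to 6.74 CPM (median 6.05) in NT (0.54 ± 0.17, adjusted p = 0.585). FBXL12 had 2.36 to 5.04 CPM in HT and 1.61 to 3.31 CPM in NT (0.62 ± 0.21, adjusted p = 0.642). In each of these genes 1 HT animal lay within the NT range. The 5 genes described with them at ZT07 had log2 fold changes between −0.07 and 0.24. FBXW11, one of the pair of β-TrCP proteins that act on IκBα and β-catenin, had a log2 fold change of 0.53 ± 0.23 (adjusted p = 0.642). FBXO22 was lower in every HT animal, at 1.03, 1.05, 0.928, 1.25 and 1.07 CPM, than in any NT animal, at 1.38 to 1.69 CPM (−0.50 ± 0.18, adjusted p = 0.642). HT also lay below NT without overlap in FBXO31, as it did in 0.428% of all genes.

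The same animals were then averaged over ZT01 and ZT07 in a fit of all 36 HT and NT animals, where 9 of 49 members rose in HT and 2 fell, against 5.59% and 4.26% of all genes. FBXO7 (1.01 ± 0.11, adjusted p = 3.17e-07), FBXO40 (1.77 ± 0.23, adjusted p = 5.34e-06) and FBXL12 (0.85 ± 0.14, adjusted p = 1.54e-04) had the smallest p-values among the members. The choice of these genes named no time point and may have used these values. FBXO3, FBXL14, FBXL5 and FBXW7 rose by 0.35 to 0.50, and FBXW11 rose by 0.44 ± 0.14 (adjusted p = 0.0346). FBXO22 fell by 0.48 ± 0.15 (adjusted p = 0.0335) and FBXL2 fell by 1.03 ± 0.33 (adjusted p = 0.0426). FBXO11, which rose at ZT07, did not pass here (0.34 ± 0.12, adjusted p = 0.0723). FBXL2 passed in only 5 of 19 fits with 1 library left out, those without HT replicate 1, NT replicate 2, 3 or 4 of ZT01 or NT replicate 4 of ZT07, FBXO22 in 12 and FBXW11 in 11. Without both unmatched libraries 6 members were called, and 7 without HT replicate 1 of ZT01, HT replicate 2 or 3 of ZT07 or NT replicate 4 of ZT07.

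At ZT16, in the dark phase, no member was called, and 0.0187% of the 10705 genes tested passed. The count of members was also 0 with DESeq2 and limma, and 2 members were higher and 3 lower in HT at an unadjusted p under 0.05, against 2.56% and 4.62% of all genes. FBXO7 had 4.82, 4.80, 7.10 and 5.63 CPM in HT and 5.86, 4.49, 5.57 and 6.57 CPM in NT (−0.00 ± 0.17). FBXL12 had 2.19, 2.64, 3.50 and 3.17 CPM in HT and 1.58, 1.93, 2.25 and 2.8 CPM in NT (0.43 ± 0.21, adjusted p = 0.718). FBXO40 had 0.508, 0.763, 0.925 and 0.744 CPM in HT and 0.389, 0.613, 0.568 and 0.546 CPM in NT (0.47 ± 0.31, adjusted p = 0.813). The groups overlapped in all 3 genes. The smallest p-values among the members were those of FBXW5 (0.45 ± 0.14), FBXO30 (−0.56 ± 0.19), FBXO9 (−0.90 ± 0.34), FBXO34 (−0.44 ± 0.19) and FBXL19 (0.47 ± 0.21), with adjusted p from 0.527 to 0.670. HT lay above NT without overlap in FBXL5, FBXO42 and FBXW5 and below NT in FBXO34, against 2.19% and 1.85% of all genes. Torpor and sex cannot be told apart at this time. All 29 erythroid genes tested at ZT16 had a log2 fold change below 0, with a median of −0.66, and none was called (16 at an unadjusted p under 0.05). The summed level of the erythroid list without haemoglobin was 11323 to 17999 CPM in HT and 19442 to 29558 CPM in NT, without overlap, and its part in the F-box values was not tested.

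**Figure D4:**
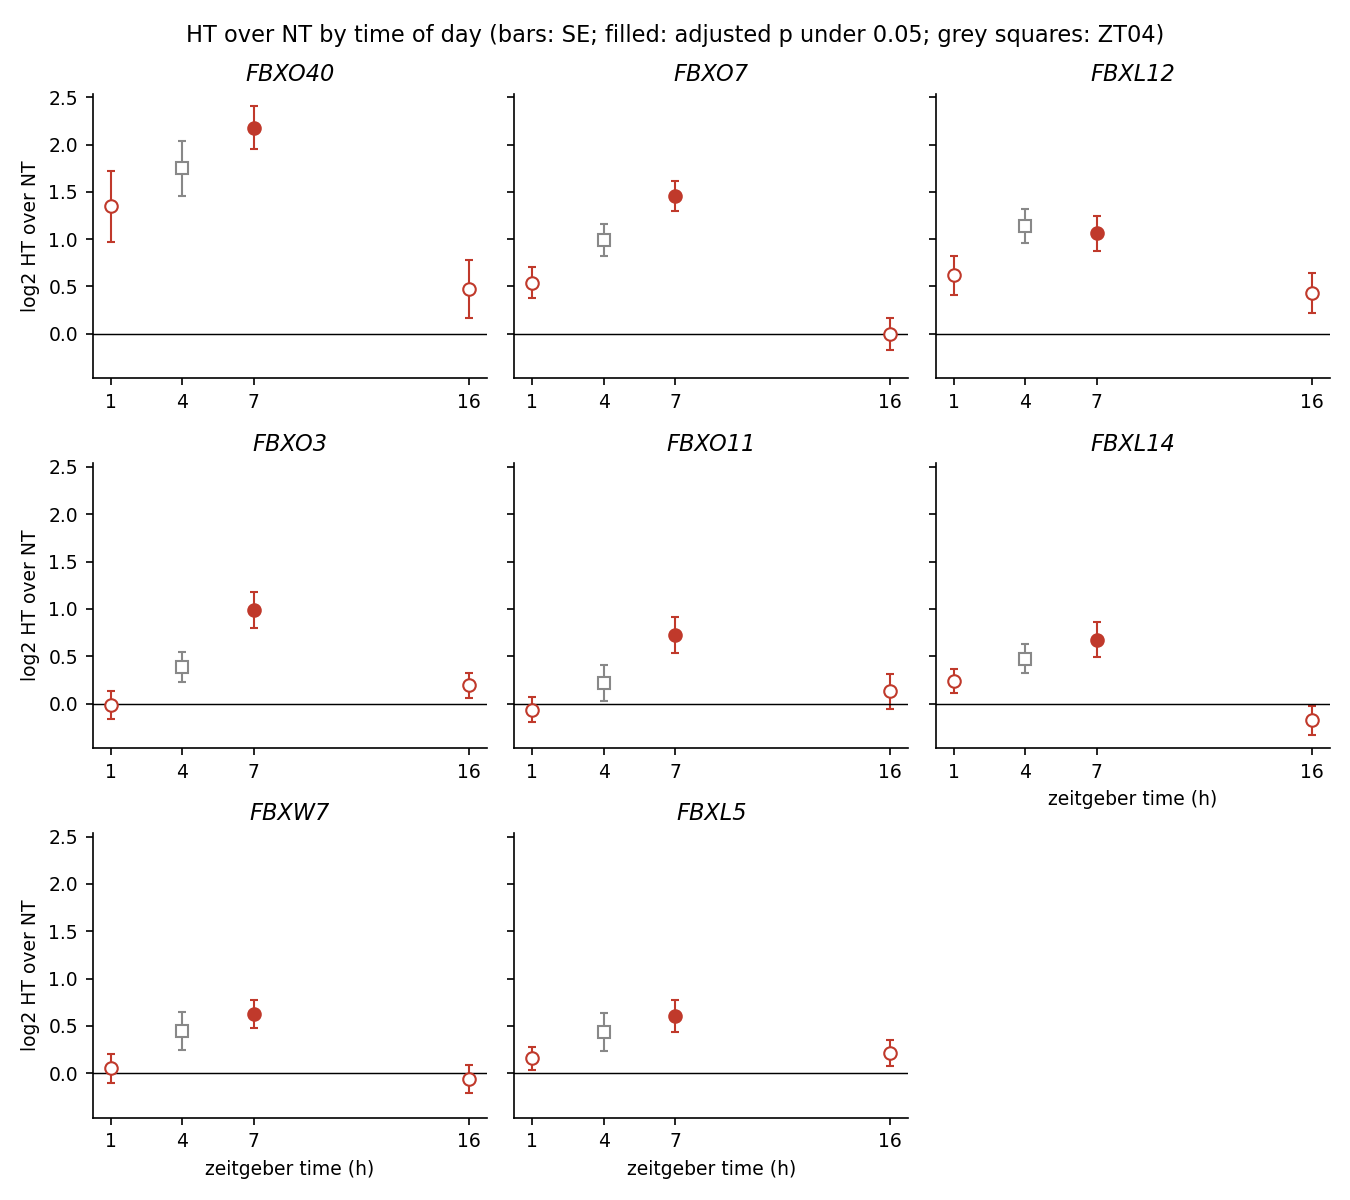
Log2 fold change of HT over NT (y axis) with its SE against zeitgeber time in hours (x axis, ZT01, ZT04, ZT07 and ZT16) for 8 members that rose at ZT07; filled points passed an adjusted p of 0.05, open points did not, and grey squares are the ZT04 values, which carry no test. All 8 genes are highest at ZT07 except FBXL12, and all lie between −0.18 and 0.47 at ZT16.

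Whether the HT difference itself changed with the time of day was tested in the same fit of 36 animals, a comparison added after the first results were seen. In HT animals the time of day and the stage of torpor cannot be told apart. It was larger at ZT07 than at ZT01 for FBXO3 (0.99 ± 0.21, adjusted p = 0.0146), the only member called, where 0.296% of all genes passed in this direction. For FBXO7 this difference was 0.90 ± 0.23 (adjusted p = 0.0586) and for FBXO40 0.83 ± 0.45 (adjusted p = 0.453). Against ZT16 the difference at ZT07 was larger for FBXO7 (1.46 ± 0.24, adjusted p = 0.00105), FBXL14 (0.85 ± 0.22, adjusted p = 0.0311) and FBXO3 (0.79 ± 0.22, adjusted p = 0.0479), where 0.854% of all genes passed in this direction. For FBXO40 it was 1.70 ± 0.50 (adjusted p = 0.0571). A sex term left 1 member called in the comparison with ZT16, as did leaving out any of 8 libraries, 5 of them HT. With 1 library left out, FBXO7 passed in all 16 fits, FBXL14 in 7, and FBXO3 in only 2, those without NT replicate 1 of ZT07 or NT replicate 1 of ZT16.

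Among the HT animals, levels at ZT01, ZT07 and ZT16 differed in 11 of 49 members, against 11.3% of all genes. They included FBXO7 (adjusted p = 4.25e-06), FBXO40, FBXL14, FBXO3, FBXL12, FBXO28, FBXW12, FBXO11, FBXW7 and FBXL5. FBXO7 averaged 8.45 ± 2.24 CPM at ZT01 (SD, n = 5), 14.8 ± 2.96 CPM at ZT07 (n = 4) and 5.59 ± 1.08 CPM at ZT16 (n = 4). FBXO40 averaged 1.64 ± 0.61 CPM, 2.95 ± 0.16 CPM and 0.735 ± 0.172 CPM at these times. Both genes were highest at ZT07 and lowest at ZT16. FBXW12 ran the other way, with 5.60 to 8.57 CPM at ZT01, 5.30 to 6.40 CPM at ZT07 and 7.16 to 11.5 CPM at ZT16. Without both unmatched libraries 3 members were called. Among the NT animals 0 of 49 members changed over these times with edgeR or DESeq2, and 0% of all genes did. At an unadjusted p under 0.05 there were 3 members (FBXW5, FBXO3 and FBXO8), against 6.19% of all genes. FBXO7 averaged 5.80 ± 0.88 CPM at ZT01 (n = 6), 5.32 ± 0.18 CPM at ZT07 and 5.62 ± 0.87 CPM at ZT16 (n = 4 each) in NT, which lie within the spread of each other.

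The never-torpor controls addressed whether members differed between animals without torpor on the day and animals that had never shown it. Their labels give no time or sex, so torpor history, time of day and sex cannot be told apart here. Set against the mean of NT at ZT01, ZT07 and ZT16, none of 50 members was called with edgeR or DESeq2, where 2.09% of all genes were. At an unadjusted p under 0.05 there were 4 members, against 8.38% of all genes. FBXO7 had 4.48, 5.30, 5.89, 4.70 and 5.75 CPM (−0.09 ± 0.13), FBXL12 had 2.35, 2.33, 2.67, 2.64 and 3.43 CPM (0.15 ± 0.15) and FBXO40 had 0.943, 0.858, 0.734, 0.713 and 0.759 CPM (0.41 ± 0.24, adjusted p = 0.733). All 3 overlapped with the NT animals of these times, which ranged from 4.49 to 6.74 CPM for FBXO7, 1.58 to 3.37 CPM for FBXL12 and 0.239 to 1.19 CPM for FBXO40. The members with the smallest p-values were FBXO30 (−0.50 ± 0.20, adjusted p = 0.353), FBXO9 (−0.72 ± 0.29), FBXL19 (0.39 ± 0.17), FBXO38 (0.25 ± 0.12) and FBXO34 (−0.25 ± 0.14). Leaving out the library that stood apart did not give any call.

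The shared parts of the ligase, SKP1, CUL1, RBX1 and RNF7, were examined beside their F-box partners. None of them was called between HT and NT at any of the 4 times with edgeR, DESeq2 or limma, and at an unadjusted p under 0.05 there was only CUL1 at ZT01 (0.35 ± 0.12, adjusted p = 0.642). At ZT07 the log2 fold change was −0.00 ± 0.14 for SKP1, −0.02 ± 0.12 for CUL1, −0.31 ± 0.16 for RBX1 and 0.38 ± 0.19 for RNF7. SKP1 had 11.4, 8.61, 10.6 and 10.9 CPM in HT and 10.8, 9.80, 10.3 and 10.2 CPM in NT. The groups overlapped in all 4 core genes. CUL1 differed over time among HT animals (adjusted p = 0.0483), with 13.9 ± 0.97 CPM at ZT01, 10.9 ± 0.74 CPM at ZT07 and 11.6 ± 0.54 CPM at ZT16. This call was lost in 6 of 8 other settings and in 12 of 13 fits with 1 library left out, all but that without HT replicate 1 of ZT01.

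**Figure D5:**
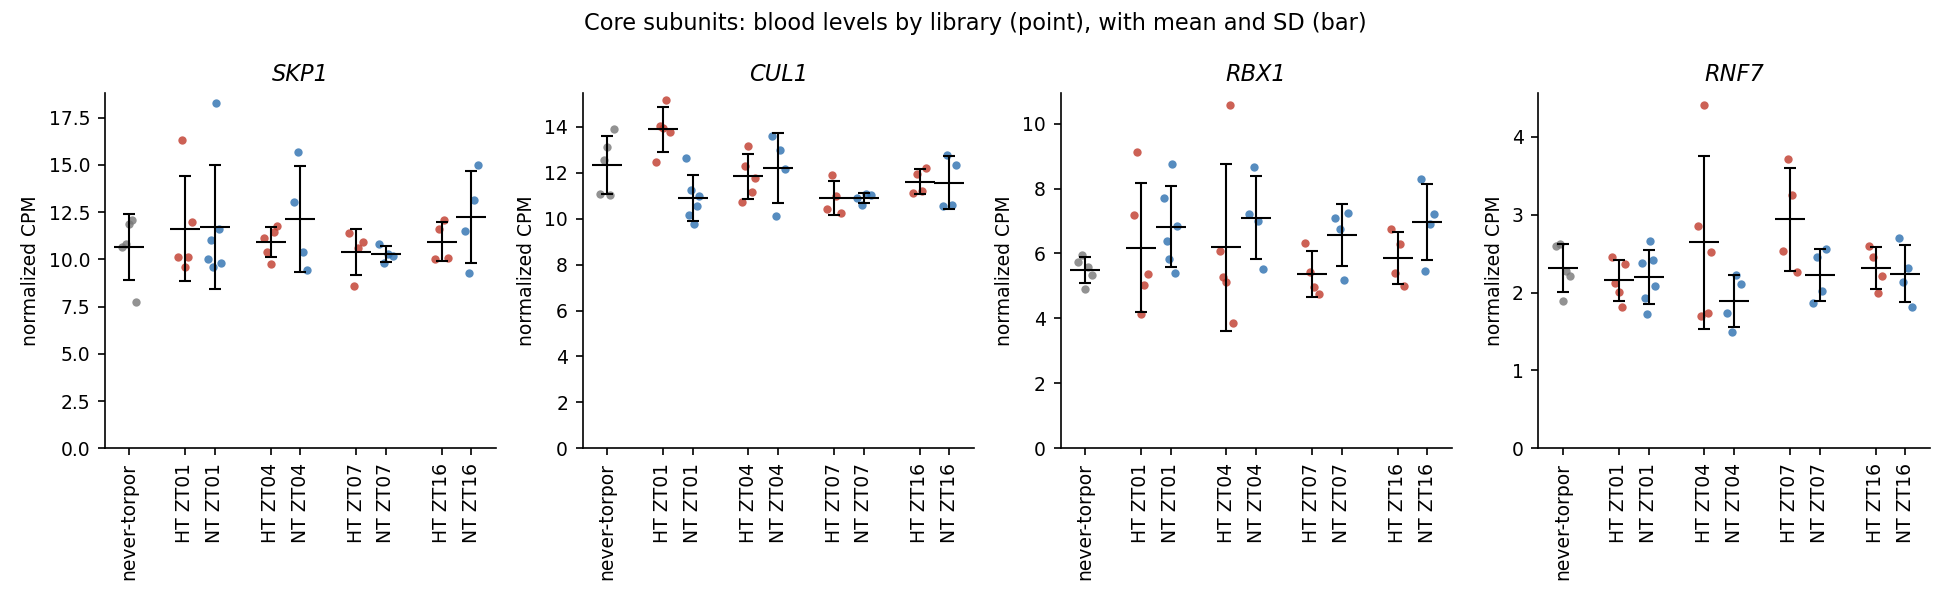
Normalized CPM (y axis, linear from 0) of the core subunits SKP1, CUL1, RBX1 and RNF7 in each library by group (x axis); points are libraries, bars are the mean and SD, red is HT, blue NT and grey never-torpor. HT and NT overlap at ZT07 in each of the 4 genes.

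Of 11 F-box genes that carry other symbols, 8 were tested at ZT07 and 1 rose, where 5.72% of all genes tested rose. It was the histone demethylase KDM2B (0.61 ± 0.18, adjusted p = 0.0487), with 4.87, 6.01, 3.97 and 4.93 CPM in HT and 2.42, 3.27, 3.93 and 3.18 CPM in NT. This call was lost without both unmatched libraries, in 6 of 10 other settings in all, and in 7 of 8 fits with 1 library left out, all but that without HT replicate 3. SKP2, which acts on the cell cycle inhibitor p27, differed over time in HT (adjusted p = 0.0477), while no gene of this list was called in 10 of 13 fits with 1 library left out, all but those without HT replicate 4 of ZT01, HT replicate 3 of ZT07 or HT replicate 3 of ZT16. In never-torpor controls, whose time and sex are not labelled, FBH1, an F-box DNA helicase, was lower than in NT (−2.37 ± 0.36, adjusted p = 8.31e-06). The test was against the mean of NT at ZT01, ZT07 and ZT16. FBH1 had 2.90 to 3.41 CPM in these controls, against 6.78 to 43.2 CPM in NT at ZT07 alone.

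Of 24 genes for NEDD8 conjugation, which switches the cullin on, and the COP9 signalosome, which switches it off, 21 were tested at ZT07. Of these 2 were called, against 10.4% of all genes tested. NAE1, a subunit of the NEDD8-activating enzyme, rose with 6.38, 7.98, 6.36 and 7.25 CPM in HT, against 5.48, 4.44, 3.93 and 3.16 CPM in NT (0.69 ± 0.18, adjusted p = 0.0312). DCUN1D2, a helper of NEDD8 transfer, fell to 0.632, 0.487, 0.788 and 0.270 CPM in HT, against 1.65, 1.17, 0.999 and 1.59 CPM in NT (−1.33 ± 0.33, adjusted p = 0.0295). Neither NAE1 nor DCUN1D2 was called without both unmatched libraries, nor without HT replicate 2 or 4 or NT replicate 2 or 4, and 1 gene of the list was called without HT replicate 1 or NT replicate 1 or 3. COPS7A differed over time in HT (adjusted p = 0.0317), as 11.3% of all genes tested did. None of 8 tested E2 enzymes and partner ligases was called at ZT07 (2 at an unadjusted p under 0.05, 0 with DESeq2 and limma).

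Of all genes tested at ZT07, 5.72% rose and 4.65% fell. Among 25 tested substrates and partners of F-box proteins, 4 rose at ZT07 and none fell, with a median of −0.07. They were IREB2, the target of FBXL5 (0.60 ± 0.14, adjusted p = 0.0246), MCL1, a target of FBXW7 (0.55 ± 0.13, adjusted p = 0.0246), NFKBIA, which encodes IκBα (0.73 ± 0.18, adjusted p = 0.0274), and the clock gene PER1, a target of the β-TrCP proteins (1.34 ± 0.21, adjusted p = 0.00573). IREB2 had 9.02, 9.17, 8 and 8.35 CPM in HT and 5.67, 6.51, 5.66 and 4.64 CPM in NT, so that the RNA of both the iron sensor and its target was higher in HT. Protein levels and the degradation of targets were not measured. PER1 had 6.57, 13.8, 7.91 and 10.4 CPM in HT and 3.72, 3.94, 3.85 and 3.58 CPM in NT. The groups did not overlap in any of these 4 genes. Without both unmatched libraries, or without HT replicate 2 alone, 1 gene of the list was called, and 2 were without any other single library but HT replicate 3, which left 4. In the average of ZT01 and ZT07 the β-catenin gene CTNNB1 fell by 0.25 ± 0.08 (adjusted p = 0.0401). BCL6, CCND2 and PER2 differed over time in HT (adjusted p = 0.0242, 0.0463 and 0.0204), and CRY2 was lower in never-torpor controls than in NT (−1.52 ± 0.28, adjusted p = 2.44e-04). As the time and sex of these controls are not labelled, torpor history, time of day and sex cannot be told apart for CRY2.

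Some markers of blood cell types were also called at ZT07, where 5.72% of all genes tested rose and 4.65% fell. Of 29 erythroid genes tested 2 fell, SLC4A1 (−1.06 ± 0.21, adjusted p = 0.0135) and KEL (−0.91 ± 0.26, adjusted p = 0.0450), with a median of −0.45. The summed level of the erythroid list without haemoglobin was 9867 to 18157 CPM in HT and 13625 to 18845 CPM in NT. Of 12 neutrophil genes 2 rose, LTF (2.09 ± 0.40, adjusted p = 0.0120) and MMP9 (1.46 ± 0.28, adjusted p = 0.0118), and the summed level was 23.1 to 50.2 CPM in HT and 25.9 to 36.4 CPM in NT. In this list 8 genes had a log2 fold change above 0 and 4 below, with a median of 0.30. At an unadjusted p under 0.05, 4 were higher and 3 lower in HT. Of 11 NK and cytotoxic genes 3 fell, KLRD1, NCR1 and TBX21, with summed levels of 43.4 to 79.6 CPM in HT and 44.0 to 117 CPM in NT. IL7R fell among 18 T cell genes, of which 5 had a log2 fold change above 0 and 13 below (median −0.20). BANK1 fell among 12 B cell genes, but 9 of these lay above 0 and 3 below (median 0.25). CX3CR1 fell among 9 monocyte genes, with 6 above 0 and 3 below (median 0.04). Summed B cell levels were 327 to 478 CPM in HT and 261 to 448 CPM in NT. For monocytes they were 182 to 290 and 140 to 288 CPM, and for T cells 196 to 287 and 230 to 322 CPM. None of 12 platelet genes was called (2 at an unadjusted p under 0.05, median −0.39). At ZT01 no marker of these lists was called, with 0 to 2 genes of each at an unadjusted p under 0.05. The part of shifts between cell types in the F-box differences at ZT07 was not tested.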

How the data were processed

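Blood cell RNA was sequenced as paired reads, and per the study's methods the authors cleaned them, built contigs from all samples together, as they had no annotated genome of this species, named each contig by its best human protein match and aligned every sample to the contigs. The deposited values are raw counts per human symbol, made by the authors with custom scripts. Of the counts between 1 and 49, 67.4% were even (71.1% among the members), and whether both reads of a pair were counted is not given in the sources used here. Groups were taken from the labels. Counts were tested with edgeR 4.0.16 (TMM, filterByExpr with a minimum count of 10 and a minimum total of 15, quasi-likelihood F test) in R 4.3.3, with Benjamini-Hochberg adjustment over all genes tested and a threshold of 0.05. HT and NT were fitted per time point, the average and the time tests with all 36 HT and NT animals, and never-torpor controls with all 41. The labels do not say whether libraries come from separate litters or days, so p-values measure the spread between these animals. No pair of libraries agreed within sampling noise (lowest chi-square per degree of freedom 9.23 over 820 pairs). Alternatives were DESeq2 1.42.0, limma 3.58.1, RLE scaling, no filter, no haemoglobin genes, the 36-animal fit, a replicate block, a sex term and leaving out libraries. The text names FBXO7, FBXL12 and FBXO40, members called in any comparison, the 5 with the smallest p in each comparison other than ZT04, members without overlap at ZT04, the 5 with most counts, members without a test, and pathway genes called, beside examples said to be chosen after their values were seen. The members and gene lists were chosen with earlier results of these data known. The result of 1 further member is counted in the totals but not reported here.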

Additional observations from a re-analysis of the deposited data

Results flagged for a closer look

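The difference between HT and NT changed with the time of day in 3 members, by a test of the difference itself in the fit of 36 animals. FBXO3 differed by 0.99 (log2) more at ZT07 than at ZT01 and by 0.79 more at ZT07 than at ZT16. FBXO7 differed by 1.46 more and FBXL14 by 0.85 more at ZT07 than at ZT16. With 1 library left out, the difference against ZT16 passed in all 16 fits for FBXO7, in 7 for FBXL14 and in 2 for FBXO3. In HT animals the time of day and the stage of torpor cannot be told apart. At ZT16 torpor and sex cannot be told apart.

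Among 126 groups of 4 to 6 libraries, covering 14 members in 9 groups, a single library stood far from the others 3 times. Chance gives about 1 in 20 groups, so these are no more than chance would give. All 3 were NT animals of ZT16. FBXO11 was at 2.97 CPM in replicate 1, beside 4.84 to 5.05 CPM in the other 3. FBXW11 was at 4.73 CPM in replicate 3, beside 3.54 to 3.72 CPM, and FBXW12 at 9.85 CPM in replicate 4, beside 6.66 to 6.92 CPM.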

How the results depend on the processing

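The count of members called stayed at 0 at ZT01, at ZT16, over the time of day in NT and in never-torpor controls under every alternative run. At ZT07 (9 called) it was 7 to 11 under 9 of 10 other settings and fell to 2 without both libraries of unmatched sex label, which leaves 2 HT animals. With 1 library left out it was 4 to 8, and fewer samples were then tested. For the average of ZT01 and ZT07 (11 called) it was 6 without both libraries and 7 to 11 with 1 left out, and for time in HT (11 called) 3 and 8 to 11. At ZT04 (3 called, no test) DESeq2 gave 5, a sex term 0 and leaving out 1 library 0 to 3, with 0 without NT replicate 3 or 4 and 1 without HT replicate 1 or 3 or NT replicate 1. For ZT07 against ZT01 (1 called) DESeq2 gave 4 and leaving out 1 library 1 to 3, with 3 without HT replicate 3 of ZT07 and 2 without HT replicate 1 of ZT01 or ZT07, NT replicate 1, 4 or 6 of ZT01 or NT replicate 1 of ZT07. For ZT07 against ZT16 (3 called) DESeq2 gave 5, a sex term 1 and leaving out 1 library 1 to 3, with 1 without HT replicate 1, 2 or 4 of ZT07, HT replicate 1 or 4 of ZT16, NT replicate 4 of ZT07 or NT replicate 2 or 3 of ZT16. Where not named, the cause was not tested.

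Replicate numbers are shared between groups, and the deviations of same-numbered HT and NT animals from their group means had correlations from −0.20 to 0.32. The same-numbered NT animal was the best match in 2 of 5 pairs at ZT01, 3 of 4 at ZT04, 2 of 4 at ZT07 and 1 of 4 at ZT16. This does not settle whether the numbers pair animals, and the main fits did not pair them. A replicate block gave 0 members at ZT04, 8 at ZT07, 9 for the average and 2 for ZT07 against ZT01. The log2 fold change of FBXO7 at ZT16, near 0 and not called, changed sign without the filter (0.00365), in the 36-animal fit (0.00489) and with 1 library left out (−0.14 to 0.0778). Of the other single-gene results with 1 library left out, 139 lost their call, 9 gained one and 920 kept their side. Low members such as FBXL2 are limited by their counts, and intervals and floors would cover counting error only.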

Other observations

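Over the 18 NT animals, the levels of the 3 genes that were higher together in HT showed no correlation that passed the test. On the log2(CPM + 0.5) scale, Pearson's r was 0.08 for FBXO7 and FBXL12 (Spearman's rho 0.12), −0.08 for FBXO7 and FBXO40 (rho −0.12) and 0.33 for FBXL12 and FBXO40 (rho 0.33). The permutation p-values, adjusted over these 3 relations, were 0.753, 0.753 and 0.554 for Pearson's r and 0.634, 0.634 and 0.558 for Spearman's rho. Without the 2 animals farthest from the median of the first gene, r was 0.06, 0.10 and 0.15. Each time point held no more than 6 NT animals, and r within the 6 of ZT01 was 0.08, 0.39 and 0.56. It was −0.13, −0.84 and 0.21 at ZT04, 0.58, 0.36 and −0.55 at ZT07, and 0.46, −0.46 and 0.57 at ZT16. The 18 animals include the NT animals of ZT04, the time whose calls match the choice of the genes. No value is given over HT animals, whose levels fall apart by time.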
